A study of Homo sapiens with 8 samples.

Results

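The genes described here are 32 zinc finger genes that lie next to each other near the end of the long arm of chromosome 19, in band 19q13.43. They were taken as the rows of the deposited count table whose symbol equals one of 32 listed names, and all 32 were found among the 58870 genes of the table. In GENCODE release 29 on GRCh38 they run from ZNF264 to ZNF606, chromosome 19 from 57191500 to 58003349, a stretch of 0.812 Mb. The members were chosen by position and selected on the calls between ELAPOR1 and control cells, because part of the cluster was higher in ELAPOR1 cells. The fold changes between these groups are therefore given as a description of the members, and the counts of members past a threshold support nothing further.

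The study sequenced RNA from Panc 10.05 cells, an established line from a human pancreatic ductal adenocarcinoma, in 8 libraries: 4 from control cells and 4 from cells carrying an ELAPOR1 transgene. ELAPOR1 is an endosome and lysosome associated membrane protein, and the series addresses its link to the classical/progenitor subtype and to metabolism in pancreatic cancer. How the transgene was introduced, which promoter drove it, what the control cells received and whether a group was 1 clone or a pool were not given in the sources used here. Nor was it stated whether the replicates were separate cultures, so the tests below measure the spread between these libraries, which may be technical.

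Zinc finger proteins of this kind bind DNA through an array of C2H2 zinc fingers. Most of the large family on chromosome 19 also carry a KRAB domain, which recruits the corepressor TRIM28 and with it the histone methyltransferase SETDB1 and heterochromatin proteins. Many of them silence transposable elements, and their genes arose by tandem duplication, so that neighbours often resemble each other in sequence. Promoters of several genes of this cluster, among them ZNF154 and ZNF671, are known to be methylated and silent in many tumours.

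The promoters of the members were compared first. Their sequence was not used in choosing the genes, but the genes were chosen as neighbours, which often resemble each other in sequence. The 12-base words below were also picked from these same windows, so a likeness between the promoters is given as a description. RefSeq windows on GRCh38.p14 from 250 bases before to 50 bases after the annotated start were found for 29 of the 32 members, 30 windows in all, with none for ZNF211, ZNF417 and ZNF552. The windows of 5 members follow, 5′ to 3′ on the strand of the gene. ZNF551, ZNF530 and ZNF772 had the largest fold changes upward, ZNF805 was the member past the threshold downward, and ZNF154 was almost silent. Capitals mark matches on either strand to the ETS factor motif CCGGAAGT and to the element AACTACATTACC. This element was the most frequent 12-base word of the member windows among those that share no 6-base word with the ETS block described after it. The windows are chr19:57681727-57682026 (plus strand) for ZNF551, chr19:57599635-57599934 (plus) for ZNF530, chr19:57477517-57477816 (minus) for ZNF772, chr19:57240382-57240681 (plus) for ZNF805 and chr19:57709155-57709454 (minus) for ZNF154.
ZNF551: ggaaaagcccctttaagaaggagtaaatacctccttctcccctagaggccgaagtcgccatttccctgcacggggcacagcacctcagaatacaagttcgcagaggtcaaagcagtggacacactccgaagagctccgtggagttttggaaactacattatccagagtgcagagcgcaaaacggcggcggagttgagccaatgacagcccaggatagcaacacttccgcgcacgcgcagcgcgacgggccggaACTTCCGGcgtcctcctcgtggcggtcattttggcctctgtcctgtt
ZNF530: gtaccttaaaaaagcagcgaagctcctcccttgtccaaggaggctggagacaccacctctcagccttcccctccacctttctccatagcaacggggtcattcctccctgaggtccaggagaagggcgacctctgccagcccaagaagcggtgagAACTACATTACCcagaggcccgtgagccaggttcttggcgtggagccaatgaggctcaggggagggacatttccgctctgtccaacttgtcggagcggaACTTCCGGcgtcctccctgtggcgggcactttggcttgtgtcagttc
ZNF772: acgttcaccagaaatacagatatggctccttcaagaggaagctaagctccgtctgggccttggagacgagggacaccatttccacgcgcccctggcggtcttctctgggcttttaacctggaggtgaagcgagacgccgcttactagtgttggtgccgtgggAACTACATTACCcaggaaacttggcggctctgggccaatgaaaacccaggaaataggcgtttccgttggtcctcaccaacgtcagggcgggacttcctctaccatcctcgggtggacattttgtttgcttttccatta
ZNF805: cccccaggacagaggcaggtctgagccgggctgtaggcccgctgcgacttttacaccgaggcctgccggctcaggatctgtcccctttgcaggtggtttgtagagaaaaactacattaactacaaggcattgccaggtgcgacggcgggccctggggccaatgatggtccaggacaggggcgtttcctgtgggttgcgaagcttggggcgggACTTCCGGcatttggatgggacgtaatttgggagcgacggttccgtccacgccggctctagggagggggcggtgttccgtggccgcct
ZNF154: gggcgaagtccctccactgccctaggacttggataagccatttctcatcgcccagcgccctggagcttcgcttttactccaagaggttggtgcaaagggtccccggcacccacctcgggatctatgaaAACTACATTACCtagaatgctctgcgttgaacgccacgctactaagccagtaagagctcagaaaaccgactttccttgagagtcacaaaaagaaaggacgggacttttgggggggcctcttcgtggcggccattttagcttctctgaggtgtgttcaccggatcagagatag

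The ETS motif CCGGAAGT was present in 20 of 30 member windows (66.7%), against 12.6% of 278 windows of other chromosome 19 genes named ZNF and 4.14% of all 35116 windows. It stood close to the start, with a median distance of its centre of -18.5 bases, and 18 of the 20 matches had the same orientation, reading ACTTCCGG on the strand of the gene. The element AACTACATTACC was present in 11 member windows (36.7%), in 1 window of another chromosome 19 ZNF gene and in 14 of all 35116 windows, so that most windows with it belonged to this cluster. They were those of ZNF17, ZNF749, ZNF772, ZNF416, ZNF530, ZNF154, ZNF586, ZNF587B, ZNF587, ZNF814 and ZNF418. Its 12 matches all had the same orientation and lay further upstream, with a median of -109 bases. The block GGCGGGACTTCC, the 12-base word found in more member windows than any other, was present in 14 member windows (46.7%) and in 0.290% of all windows. It ends in ACTTCC, with which ACTTCCGG begins, but not every block was part of a full ETS match. The windows of ZNF548, ZNF17 and ZNF772 and the ZNF460 window from 57280235 held the block and no ETS match. In ZNF256 the ETS match lay apart from the block, at -146 bases. The CCAAT box, searched as CCAAT on both strands, was present in 23 member windows (76.7%), against 45.7% of windows of other chromosome 19 ZNF genes and 34.6% of all windows.

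The plot of motif positions shows the order of the medians along the windows: the element, then the CCAAT box (-62.5 bases), then the ETS motif, then the start. These medians pool different windows, and only 6 of the 30 windows held both the element and the ETS motif. Among these, ZNF586 held the motifs in that order. ZNF416 and ZNF530 held the element, then the CCAAT box, then the ETS motif, but their ETS match lay past the start (centre at 7.0 bases in both). In ZNF587 the CCAAT match (-199.5 bases) lay upstream of the element (-112). In ZNF587B (3.5) and ZNF814 (8.5) it lay past the start. The GC box GGGCGG was in 63.3% of member windows, 64.4% of windows of other chromosome 19 ZNF genes and 45.0% of all windows. The cyclic AMP response element TGACGTCA was in 3 member windows (10.0%), against 3.60% and 1.85%. The TATA box TATAAA was in 1 member window (3.33%), against 2.88% and 11.5%. The member windows held a median of 20 CpG dinucleotides (11 to 34), the same median as windows of other chromosome 19 ZNF genes, and the median over all windows was 14. The words were picked from these windows, so their shares describe the windows and test nothing, and a match describes letters, not a bound site. Both occurred among members past the threshold upward and members short of it: the ETS motif was in 10 of 13 windows of the former and 9 of 15 of the latter, and the element in 6 and 4. ZNF154, close to silent, held the element and neither the ETS motif nor a CCAAT box.

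**Figure D1:**
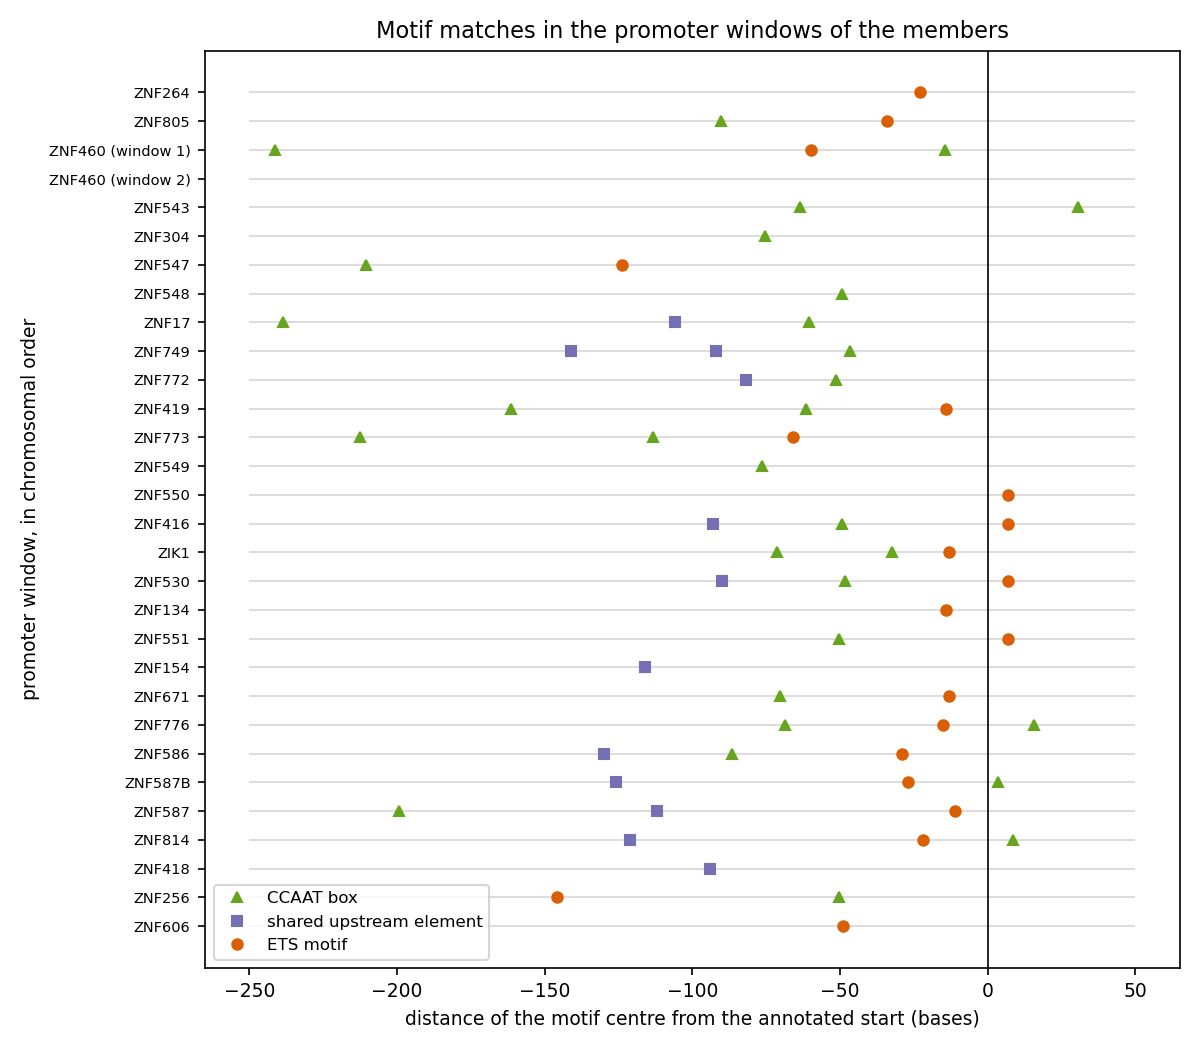
Positions of matches to the CCAAT box (triangles), the element shared between members (squares) and the ETS motif (circles) in the 30 promoter windows of 29 members, as distance of the motif centre from the annotated start in bases. ETS matches gather near the start (median -18.5 bases) and the shared element lies upstream of them (median -109 bases).

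Library depth was 16558600 to 18128757 counts in control and 13765509 to 17258166 in ELAPOR1 libraries. Epithelial markers were abundant in every library (summed level of 6 genes from 11160 to 13200 CPM), while the sum of 5 fibroblast markers reached at most 4.32 CPM, that of 3 endothelial markers at most 1.95 CPM and that of 4 acinar and endocrine markers at most 0.246 CPM. CPM stands for counts per 1000000 after TMM scaling. Of the leukocyte markers, CD68 averaged 84.4 CPM in control and 75.7 CPM in ELAPOR1 libraries, PTPRC 0.0152 and 0.0153 CPM, and CD3E was at 0. ELAPOR1, listed as KIAA1324, was at 0.150 ± 0.107 CPM in control and 427 ± 2.28 CPM in ELAPOR1 libraries (SD, n = 4 each), so the libraries matched their labels. Across the table, 13860 genes had enough counts to be tested with edgeR's quasi-likelihood test, and a call means an adjusted p-value under 0.05. Calls were made for 44.7% of them, of which 22.6% of tested genes were higher and 22.1% lower in ELAPOR1 libraries.

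The cluster was active in this cell line with 1 clear exception. Compared per kilobase of the longest annotated transcript, ZNF587B had the highest control level of the members, at 10.0 CPM per kb, followed by ZNF587 at 6.41, ZNF805 at 6.04, ZNF134 at 5.92, ZNF814 at 5.66 and ZNF551 at 5.55 CPM per kb. From ZNF587 to ZNF551 each gene differed from the next by less than the larger of their SDs between control libraries (0.318 for ZNF587, 0.630 for ZNF805, 0.428 for ZNF134, 0.476 for ZNF814 and 0.667 for ZNF551, n = 4). In ELAPOR1 libraries ZNF587B was at 12.7, ZNF551 at 8.21 and ZNF587 at 7.40 CPM per kb. At the lower end, ZNF547 stood at 1.26 and ZNF460 at 0.535 CPM per kb. ZNF154, whose promoter is a known methylation marker in tumours, had 0, 1, 1 and 3 counts in the control and 1, 0, 2 and 1 counts in the ELAPOR1 libraries. It was too low to be tested, and a change in it was not detectable at this depth. The other 31 members passed the filter on low counts.

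**Figure D2:**
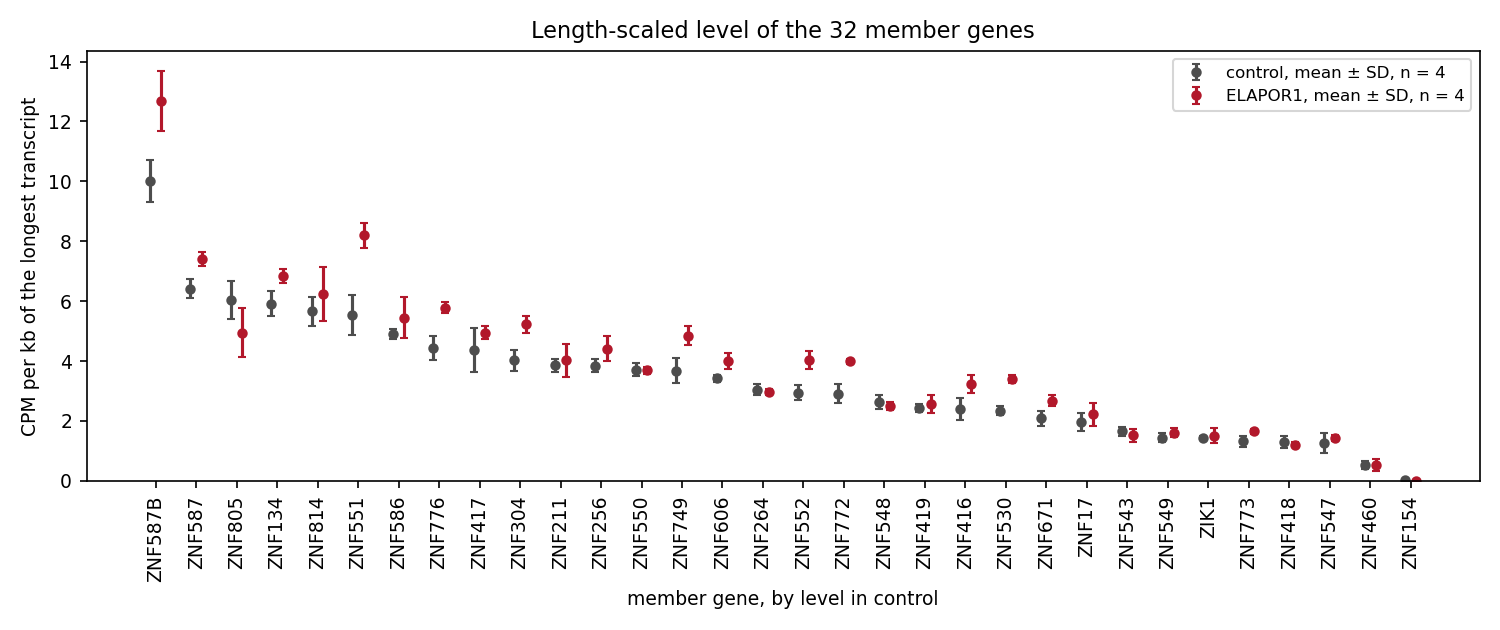
Level of the 32 members in CPM per kilobase of the longest annotated transcript, ordered by the control level (mean ± SD, n = 4 libraries per group). ZNF587B stands highest at 10.0 CPM per kb in control, and ZNF154 is close to 0 in both groups.

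Of the 31 tested members, 14 were called higher in ELAPOR1 cells, 1 was called lower and 16 did not pass the threshold. This is 45.2% higher and 3.23% lower, beside 22.6% and 22.1% of all tested genes, but the members were listed with this contrast known. The median log2 fold change of the tested members was 0.18, against 0.00087 over all tested genes, and 24 of the 31 lay above 0. The changes were small, from -0.29 to 0.56 on the log2 scale. The summed level of all 32 members was 423 to 469 CPM in control and 502 to 526 CPM in ELAPOR1 libraries. The sum over the other zinc finger genes of chromosome 19 was also separate, at 2684 to 2803 CPM in control and 2888 to 2960 CPM in ELAPOR1 libraries. For 14 members all libraries of one group lay above all of the other, in each case with ELAPOR1 higher, and these were the 14 called higher. Among all tested genes 39.3% were separated in this way, 20.0% with ELAPOR1 higher.

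ZNF551 (ENSG00000204519.11, plus strand, 57681969 to 57717301) had the largest fold change of the cluster. Its level was 27.8, 24.5, 27.6 and 21.3 CPM in the control libraries and 36.2, 37.8, 35.8 and 40.0 CPM in the ELAPOR1 libraries, a log2 fold change of 0.56 (SE 0.0700). Every ELAPOR1 library was above every control library. The gene overlaps ZNF154 on the other strand and the transcript AC003006.1, and 2.68% of its 75-base words also occur in another gene.

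ZNF530 (ENSG00000183647.10, plus strand, 57599885 to 57612722) was at 9.54, 9.85, 10.5 and 11 CPM in control and 14.7, 14.2, 15 and 15.6 CPM in ELAPOR1 libraries (log2 fold change 0.54, SE 0.0890). All ELAPOR1 libraries were above the highest control library. None of its 75-base words occurs in another gene and it overlaps none, so its count does not depend on how reads were divided. ZNF772 (minus strand, 57466663 to 57477570), the next in size, was at 14.8, 13.9, 17.7 and 16.5 CPM in control and 21.6, 21.5, 21.1 and 22.2 CPM in ELAPOR1 libraries (0.46, SE 0.0791). These 3 genes were the members that also passed a test against a change of 1.2-fold. Of all tested genes, 4.97% were called higher in that test.

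ZNF552 was at 7.48, 7.20, 6.84 and 6.11 CPM in control and 9.52, 9.94, 10.0 and 8.53 CPM in ELAPOR1 libraries (log2 fold change 0.45, SE 0.111). ZNF416 was at 6.21, 5.02, 7.31 and 6.04 CPM in control and 8.72, 9.18, 7.56 and 7.79 CPM in ELAPOR1 libraries (0.44, SE 0.126). ZNF749 was at 11, 9.68, 8.87 and 8.54 CPM in control and 12.2, 13.8, 12.1 and 12.1 CPM in ELAPOR1 libraries (0.40, SE 0.0989). In each of the 3 the groups were separate, with the gap narrow for ZNF416, where the highest control library was close to the lowest ELAPOR1 library. ZNF552 is the least certain of them in its count, since 11.6% of its 75-base words occur in other genes, mostly in ZNF814, and its values were not whole numbers in any library.

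ZNF776 was at 26.4, 21.9, 23.5 and 22.0 CPM in control and 29.1, 31.4, 30.9 and 31.0 CPM in ELAPOR1 libraries (log2 fold change 0.38, SE 0.0676). ZNF304 was at 19.1, 16.0, 18.3 and 16.1 CPM in control and 24.2, 21.4, 22.0 and 22.6 CPM in ELAPOR1 libraries (0.38, SE 0.0764). ZNF671, whose promoter is often methylated in tumours, was at 5.54, 6.61, 5.39 and 6.77 CPM in control and 7.92, 8.52, 7.27 and 7.44 CPM in ELAPOR1 libraries (0.36, SE 0.123). The groups were separate for these 3 genes as well. For ZNF671 the call was lost without control replicate 1, control replicate 3 or ELAPOR1 replicate 2 (log2 fold change 0.31 in each).

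ZNF587B was at 35.0, 35.5, 30.3 and 33.0 CPM in control and 37.9, 41.7, 45.5 and 44.2 CPM in ELAPOR1 libraries (log2 fold change 0.34, SE 0.0623). Of its 75-base words 19.4% occur in another gene, mostly in the transcript AC010522.1, which overlaps it on the same strand (13.2%). ZNF587 shares 30.0% of its words with ZNF814, which overlaps it on the other strand, and ZNF417 shares 23.3% with ZNF587, which it does not overlap. The counts of these 4 genes were divided in every library. ZNF417 and ZNF587 are known to bind and repress primate endogenous retroviruses. Of the 4, ZNF587B and ZNF587 (0.21, SE 0.0512) were called higher, while ZNF417 (0.18, SE 0.0925) and ZNF814 (0.14, SE 0.0888) did not pass the threshold. Without control replicate 1 ZNF417 was called higher as well (0.30). How reads were divided makes the differences among these genes uncertain. The remaining calls upward were ZNF773 (0.34), ZNF606 (0.22) and ZNF134 (0.21). ZNF773, which shares 5.80% of its words with ZNF419, lost its call without control replicate 1 (0.28) or control replicate 3 (0.29), and with the replicate block and GC and length trends taken out together (0.27). ZNF606, the last member, lost it without any of control replicate 2 or ELAPOR1 replicates 1, 2 and 3, with log2 fold changes of 0.20 to 0.21. It also lost it under DESeq2 (0.22) and with GC and length trends taken out, with or without the replicate block (0.18 in both).

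**Figure D3:**
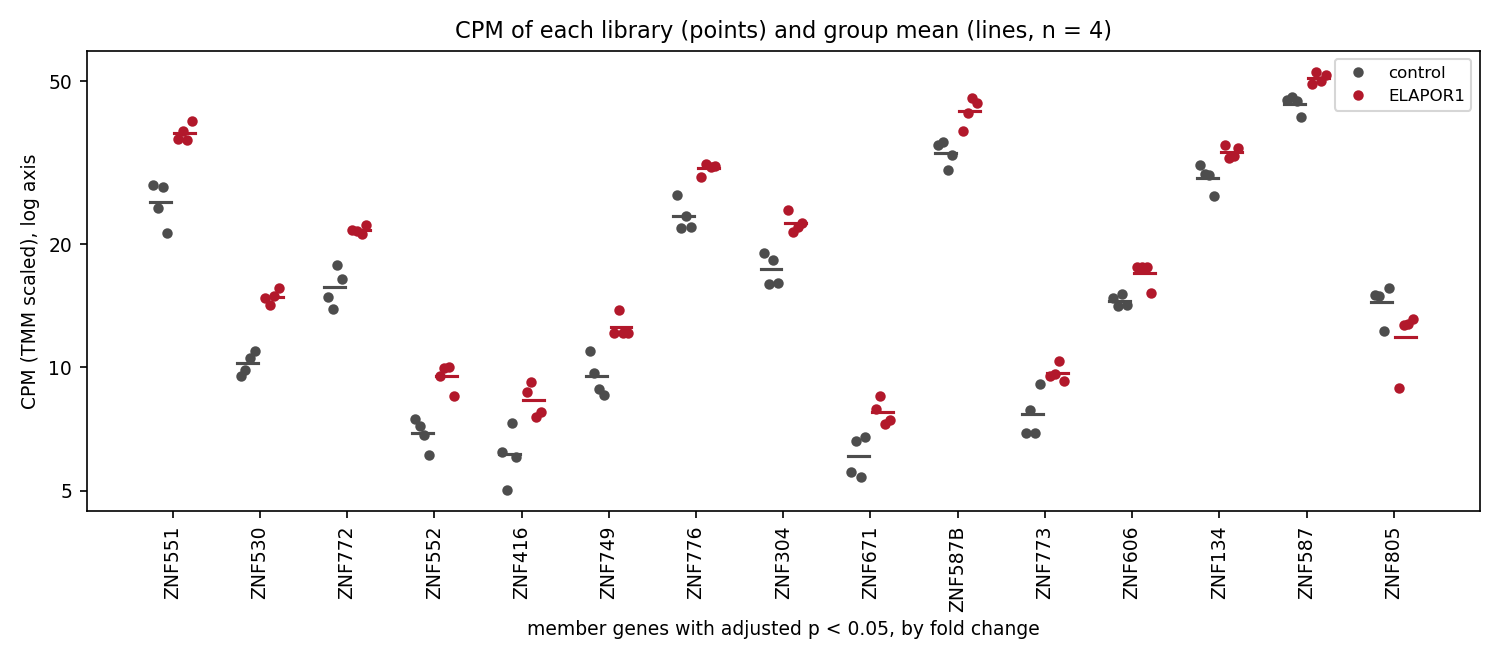
CPM of each library (points, logarithmic axis) and group means (lines, n = 4) for the 15 members with an edgeR adjusted p-value under 0.05, ordered by fold change. For 14 genes all ELAPOR1 libraries lie above all control libraries; for ZNF805 the groups overlap, with ELAPOR1 replicate 1 lowest at 8.91 CPM.

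ZNF805 (plus strand, 57240685 to 57255135), the second gene of the stretch, was the member called lower. It was at 15.1, 14.9, 12.3 and 15.6 CPM in control and 8.91, 12.7, 12.7 and 13.1 CPM in ELAPOR1 libraries, a log2 fold change of -0.29 (SE 0.106). The groups overlapped, since control replicate 3 lay below 3 of the ELAPOR1 libraries. The call was lost without ELAPOR1 replicate 1 (-0.17), control replicate 2 (-0.27) or control replicate 4 (-0.25). The next falls in size did not pass the threshold. ZNF543 was at 6.76, 5.66, 5.57 and 6.16 CPM in control and 6.63, 5.59, 5.11 and 4.90 CPM in ELAPOR1 libraries (-0.12, SE 0.135). ZNF418 was at 5.38, 4.6, 5.39 and 3.90 CPM in control and 4.6, 3.99, 4.54 and 4.67 CPM in ELAPOR1 libraries (-0.11, SE 0.151). Both genes overlapped widely between groups.

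The other members short of the threshold had log2 fold changes from -0.08 to 0.20. Those above 0 were ZNF256, ZNF17, ZNF547, ZNF549, ZNF586, ZIK1, ZNF419 and ZNF211, together with ZNF417 and ZNF814. ZIK1, named for the binding of its protein to hnRNP K, had 0.07 (SE 0.135). Those below 0 were ZNF550, ZNF460, ZNF264 and ZNF548. ZNF264 was among the best measured members, at 37.1 ± 2.33 CPM in control and 36.1 ± 1.16 CPM in ELAPOR1 libraries (SD, n = 4 each), with a log2 fold change of -0.04 (SE 0.0578). ZNF460 was the least well measured of the tested members, at 1.79 ± 0.466 and 1.77 ± 0.627 CPM, and its log2 fold change of -0.02 had a 95% interval from -0.56 to 0.52.

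The order of the genes along the chromosome showed no unbroken block. The first 4 members, ZNF264, ZNF805, ZNF460 and ZNF543, held no call upward. From ZNF304 to ZNF606 called and uncalled genes alternated, and the longest run of neighbouring tested members called higher was that of ZNF551, ZNF671 and ZNF776. Neighbours could differ: ZNF416 was called higher while ZIK1, whose start overlaps that of ZNF416 on the other strand, was not, and ZNF550 had a log2 fold change of -0.01 between ZNF549 (0.16) and ZNF416 (0.44). The median GC content of the longest transcript was 45.1% for members called higher and 45.5% for those not called. Those called higher had a higher control level (median 15.1 against 9.50 CPM). Among members with at least 10 CPM in control 9 of 18 (50%) were called higher, and among those below 5 of 13 (38.5%). The share over all tested genes was 22.6%. The part of the level in the calls was not tested.

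**Figure D4:**
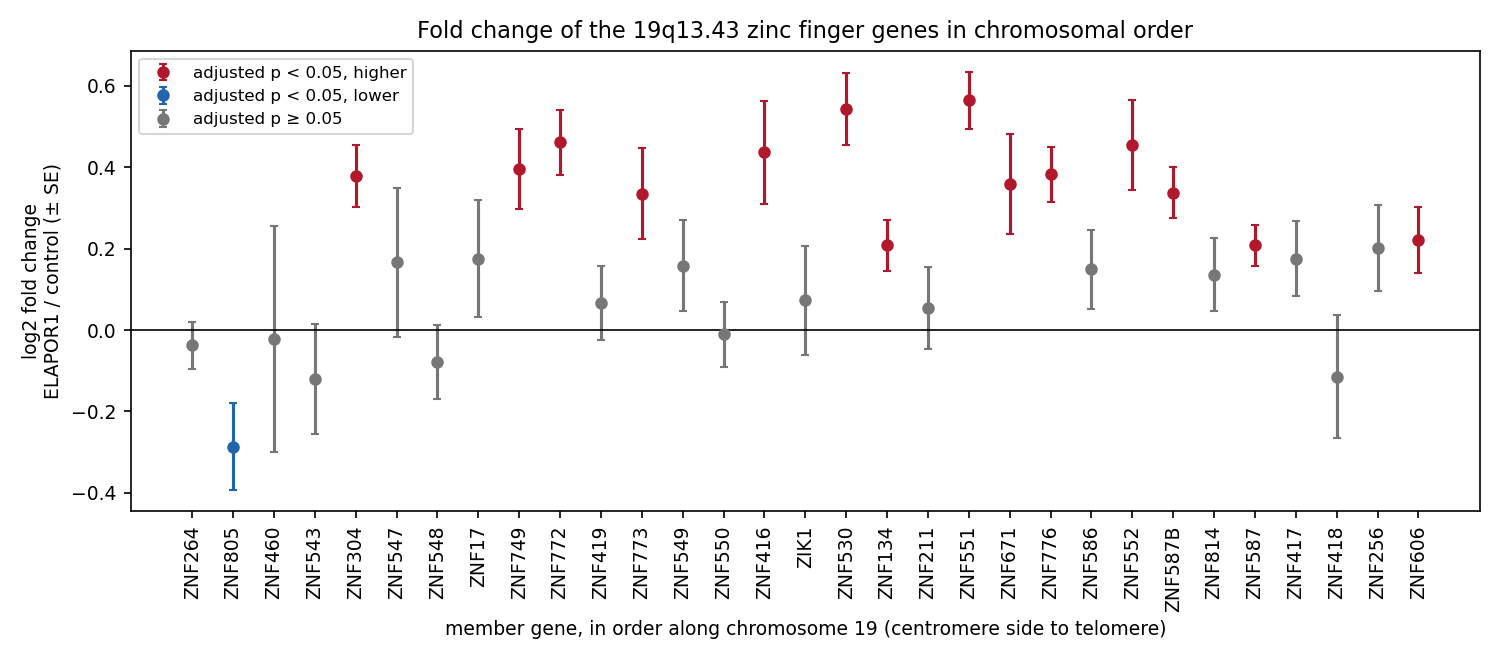
Log2 fold change of ELAPOR1 over control (± SE, n = 4 libraries per group) for the 31 tested members in their order along chromosome 19. Genes called higher are spread from ZNF304 to ZNF606 among genes that did not pass the threshold, and ZNF805 near the start was called lower.

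Reads that match several genes were one limit on these values. Of the 32 members, 16 had whole counts in all 8 libraries (to within 1e-06), and 15 of these were tested. Among them 6 (40%) were called higher and none lower (ZNF304, ZNF416, ZNF530, ZNF134, ZNF671 and ZNF606), with a median log2 fold change of 0.16. The 16 members with divided counts held 8 calls upward (50%) and 1 downward (6.25%), with a median of 0.19. Of all tested genes 22.6% were called higher and 22.1% lower. The members were selected on these calls, so the counts cannot show whether the division of reads shaped them. Whether the table was made with regard to strand was not given in the sources used here, so the values of members that overlap a gene on the other strand, such as ZNF552 with ZNF586 and ZNF587 with ZNF814, are uncertain where the exons overlap. ZNF416 and ZIK1, which share 7.40% and 3.33% of their words with each other, had whole counts in all 8 libraries.

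Genes inside the stretch that were not members gave a mixed picture. Of 29 such genes in the annotation, 8 were tested, and their median log2 fold change was -0.11. Of the 8, 1 was called higher and 1 lower (12.5% each), beside 22.6% and 22.1% of all tested genes. The lower one was the long noncoding RNA AC005261.1 (57304305 to 57308562), between ZNF460 and ZNF543, which fell from 38.7 ± 4.59 to 27.1 ± 2.35 CPM (SD, n = 4 each; -0.51, SE 0.0768, edgeR adjusted p = 5.2e-06). The higher one, AC010522.1, is a transcript that runs across ZNF587B and ZNF587. It rose from 0.871 ± 0.147 to 1.58 ± 0.399 CPM (0.85, SE 0.300, edgeR adjusted p = 0.0211). However, it shares transcript sequence with ZNF587B (13.2% of the words of that gene) and ZNF586 (4.44%), and its counts were divided in every library. Its call was lost without control replicate 4 (0.78) or ELAPOR1 replicate 3 (0.69). The 6 that did not pass were TRAPPC2B (-0.01), VN1R1 (-0.22), AC005261.3 (-0.37), AC003005.1 (0.33), AC010326.4 (-0.37) and AC008969.1 (0.11).

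On the side of the centromere the 5 nearest protein coding genes, ZIM2, PEG3, USP29, ZIM3 and DUXA, had no count in any library. On the side of the telomere ZSCAN1 had none either, ZNF135 (-0.28) and ZNF329 (0.09) did not pass the threshold, and ZSCAN18 was called lower (-0.26, edgeR adjusted p = 0.0354), a call that was lost without control replicates 1 or 2 or ELAPOR1 replicates 1, 2 or 4. ZNF274, which is known to bring SETDB1 to the downstream ends of zinc finger genes, rose from 57.5 ± 3.21 to 69.1 ± 1.32 CPM (SD, n = 4 each; 0.26, edgeR adjusted p = 1.7e-05). From the last member to the end of the chromosome, 24 protein coding genes were tested. Of these 9 were called higher (37.5%) and 6 lower (25%), with a median log2 fold change of 0.017. Among all tested genes 22.6% were called higher and 22.1% lower. The 14 zinc finger genes among the 24 held 7 calls upward (50%) and 3 downward (21.4%), with a median of 0.17. Calls upward were therefore found outside the stretch of the members as well.

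The other zinc finger genes of chromosome 19 were taken from the same fit. Of 228, 174 were tested, 47 were called higher (27.0%) and 17 lower (9.77%), with a median log2 fold change of 0.10. The shares over all tested genes were 22.6% higher and 22.1% lower. On the long arm 38 of 114 tested were called higher (33.3%) and 12 lower, with a median of 0.14. On the short arm 9 of 60 were called higher (15%) and 5 lower, with a median of 0.012. No comparison with the cluster described here is drawn from these shares, since its members were selected on the same contrast. The largest changes among the other genes were those of ZNF626 (1.84, edgeR adjusted p = 5.2e-05), ZNF132 (0.87, 8.5e-03) and ZNF540 (0.71, 0.0463) upward, and of ZNF559-ZNF177 (-1.61, 0.0143), ZNF581 (-1.03, 3.6e-08) and ZNF233 (-0.83, 0.0417) downward. All but ZNF581 had under 3 CPM in both groups. With a library left out in turn, the ZNF540 call was lost in all but 2 analyses (those without control replicate 3 or ELAPOR1 replicate 3) and the ZNF233 call in all but 1 (that without control replicate 2). The ZNF559-ZNF177 call was lost without control replicate 2 or ELAPOR1 replicates 1, 2 or 4.

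**Figure D5:**
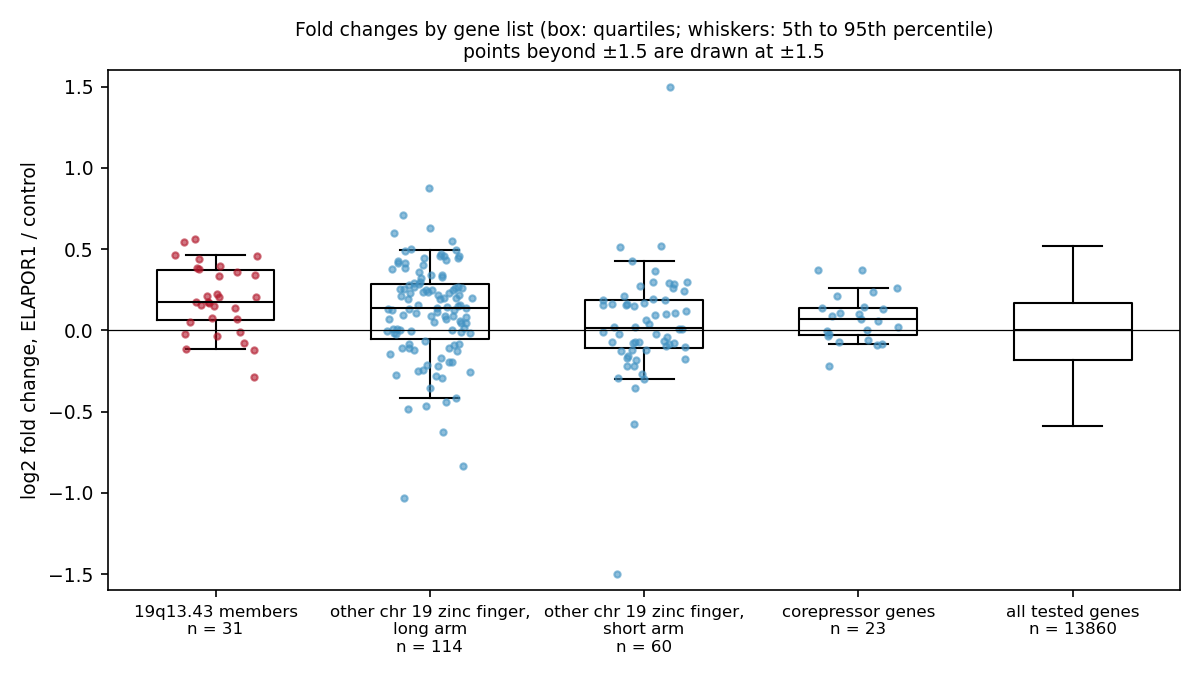
Log2 fold changes of the tested members beside the other chromosome 19 zinc finger genes of each arm, the corepressor genes and all tested genes (box for quartiles, whiskers for the 5th to 95th percentile, points for genes). The median is 0.18 for the members, 0.14 for the long arm, 0.012 for the short arm and 0.00087 for all tested genes.

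The partners through which KRAB zinc finger proteins repress were read from a list of 23 genes, all of them tested. Of these 9 were called higher (39.1%), 2 lower (8.70%) and 12 neither, with a median log2 fold change of 0.072. Of all tested genes 22.6% were called higher and 22.1% lower. Calls in either direction made up 47.8% of the list and 44.7% of all tested genes. The median control level was 82.9 CPM for the list and 25.6 CPM for all tested genes. TRIM28, the corepressor that the KRAB domain binds, itself lies beyond the cluster at 58544091 to 58550722 of chromosome 19. It rose from 347 ± 16.4 to 448 ± 11.5 CPM (SD, n = 4 each; 0.37, SE 0.0319, edgeR adjusted p = 1.4e-11). The histone methyltransferase gene SUV39H2 rose by 0.37 (edgeR adjusted p = 3.0e-04), from 14.3 ± 1.2 to 18.5 ± 0.549 CPM, and SETDB1 did not pass the threshold (-0.06, edgeR adjusted p = 0.369). The calls downward were CHD3, a chromatin remodeller subunit, at -0.22 (edgeR adjusted p = 1.8e-05) and the deacetylase HDAC2 at -0.09 (0.0414). The HDAC2 call was lost without any of control replicates 1 and 4 and the 4 ELAPOR1 replicates.

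Enzymes of DNA methylation were listed because promoters of the cluster are methylated in many tumours; no methylation was measured here. Of 7 genes, 6 were tested and all were called, 4 higher and 2 lower, beside calls for 44.7% of all tested genes. Their median control level was 46.8 CPM, against 25.6 CPM for all tested genes. The maintenance genes rose, UHRF1 by 0.62 (edgeR adjusted p = 4.3e-16) from 144 ± 5.33 to 221 ± 8.75 CPM and DNMT1 by 0.39 (1.0e-12) from 349 ± 14.1 to 457 ± 5.03 CPM (SD, n = 4 each). UHRF1 had divided counts in all 8 libraries. The de novo methyltransferase genes DNMT3A (-0.35, edgeR adjusted p = 1.1e-05) and DNMT3B (-0.25, 0.0136) fell. TET2 (0.24, edgeR adjusted p = 0.0171) and TET3 (0.17, 3.8e-03), which encode enzymes that oxidise methylated cytosine, rose, and TET1 was too low to be tested. The TET2 call was lost without control replicate 2 (0.19) or ELAPOR1 replicate 3 (0.20). The part of these genes in the levels of the members was not tested.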

How the data were processed

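Per the file headers and name, the authors deposited expected counts per gene from RSEM, unscaled, with 1 column per library. The submitters' processing notes list cutadapt, STAR, RSEM and DESeq2 and the build hg38, with no version or order; annotation release and use of strand were not given in the sources used here. Expected counts were rounded. The test was edgeR's (version 4.0.16, R 4.3.3; filterByExpr, TMM, robust quasi-likelihood, two-sided, group only, 4 against 4 libraries), with Benjamini-Hochberg adjustment over 13860 genes; calls were those with adjusted p under 0.05. The SE is the log2 fold change divided by the square root of F. The procedure was tested on simulated data. The simulation used whole counts, separate libraries and a common spread setting for all genes. It therefore says nothing on divided counts, on differences in spread between genes or on replicates that may be technical. Of 58870 identifiers, 58597 matched GENCODE release 29 without version, which gave positions, lengths and GC content. Shared sequence is the share of a gene's 75-base transcript words found in transcripts of another gene on either strand. Promoters are from RefSeq; 1 member, ZNF460, has more than 1 window.

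Every member is named. Values in every library are given for the 10 largest rises and 3 largest falls among tested members, and outside the cluster genes are named for the largest changes of each list (3 in each direction for zinc finger genes, 2 for corepressors; SETDB1, the DNA methylation enzymes and the promoter words were singled out after their values were seen). The members and lists were chosen with earlier results of these data known. Samples with the same replicate number did not deviate together. Alternatives covered scaling, tool, filter, threshold, replicate block, GC and length trends, and each library left out. Figures were drawn with matplotlib 3.10.9.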

Additional observations from a re-analysis of the deposited data

Results flagged for a closer look

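In 5 groups of 4 libraries, 1 library lay further from the other 3 than Dixon's 95% critical value allows. This was looked for in 86 groups (the CPM of the members, of ELAPOR1 and of the tested genes inside the stretch, library totals and the summed level of the members), and chance gives about 1 in 20 groups, or 4.3. ZNF805 was at 8.91 CPM in ELAPOR1 replicate 1 and from 12.7 to 13.1 CPM in the other ELAPOR1 libraries. ZNF17 was at 6.60 CPM in control replicate 1 and from 4.88 to 5.15 CPM in the other control libraries. ZNF749 was at 13.8 CPM in ELAPOR1 replicate 2 and from 12.1 to 12.2 CPM in the others. ZNF606 was at 15.2 CPM in ELAPOR1 replicate 4 and at 17.6 CPM in each of the others. AC010326.4, a processed pseudogene inside the stretch, was at 2.79 CPM in ELAPOR1 replicate 2 and from 3.52 to 3.62 CPM in the others.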

How the results depend on the processing

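The number of members called higher, 14, was 12 to 14 when a library was left out and 12 to 14 under other scalings, tools, filters, the replicate block and removal of GC and length trends; it was 11 at an adjusted p under 0.01, 6 among members with whole counts (fewer genes) and 3 in the test against a 1.2-fold change (a stricter test). In the test against 1.2-fold, 4.97% of all tested genes were called higher and 11.15% in either direction. The single call lower was 0 in that test and at an adjusted p under 0.01, and 0 to 1 without a library. With the replicate block, 14 members were higher and 1 lower; same-numbered libraries had correlations of deviations from -0.0213 to 0.0326, and not every library correlated best with its own number. Of the other chromosome 19 zinc finger genes, 39 to 48 were called higher and 9 to 15 lower without a library, against 47 and 17; 10 were lower under DESeq2, 5 at an adjusted p under 0.01, and 8 higher and 3 lower against 1.2-fold. Corepressor genes called higher numbered 8 to 9 without a library and 1 against 1.2-fold; those called lower numbered 1 to 2 without a library, 1 under total count scaling, DESeq2, no filter, the replicate block and an adjusted p under 0.01, 5 after removal of GC and length trends, 4 with the block added and 0 against 1.2-fold. The cause of these moves was not tested. ELAPOR1 gave 11.15 to 11.75 without a library. No called gene changed direction. Uncalled genes near 0 did: ZNF550 was 0.010 and TRAPPC2B 0.014 under total count scaling, TRAPPC2B was 0.026 with GC and length trends removed and 0.030 with the replicate block added. Without a library ZNF550 ranged from -0.039 to 0.017, TRAPPC2B from -0.094 to 0.063, ZNF460 from -0.16 to 0.18, VN1R1 from -0.40 to 0.048, ZIK1 from -0.0024 to 0.19 and ZNF211 from -0.039 to 0.10. Depth limits the 13 tested members under 10 CPM in control, whose median SE was 0.126.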
